A study of Mus musculus with 486 samples.

Results

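The natural killer (NK) cell genes Nfil3, Il2rb and Klrb1c were followed in single lymphoid progenitors of mouse bone marrow, measured by RT-qPCR on a Fluidigm BioMark chip. They are 3 of the 47 gene assays in the table. They were found by assay name and Ensembl identifier: E4BP4 for Nfil3 (ENSMUSG00000056749), CD122 for Il2rb (ENSMUSG00000068227) and NK1.1 for Klrb1c (ENSMUSG00000030325). All cells came from wild-type C57/Bl6 bone marrow, with no treatment or age given in the labels. Common lymphoid progenitors (CLP), which can still form several lymphoid lineages, had been sorted into CLP Ly6d-Gfra2- (87 cells kept), CLP Ly6d+Gfra2- (86) and CLP Ly6d+Gfra2+ (82). FrA cells, which stand early in the B-cell pathway, had been sorted into FrA Gfra2- Bst1- (83), FrA Gfra2+ Bst1- (83) and FrA Gfra2+ Bst1+ (42).

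Nfil3 is a basic leucine zipper transcription factor, also called E4BP4, that early NK and innate lymphoid progenitors need. Il2rb is CD122, the chain shared by the IL-2 and IL-15 receptors, and its appearance marks commitment of lymphoid progenitors toward NK cells. Klrb1c is the C-type lectin-like receptor NK1.1, a surface antigen of mature NK cells in C57BL/6 mice. B-cell commitment runs through a different set of genes: Ebf1 and Pax5 are transcription factors that specify and fix the B lineage, Igll1 is a chain of the surrogate light chain, and Pou2af1 is a coactivator of the octamer factors of B cells.

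The values are cycle thresholds (Ct), the PCR cycle at which fluorescence passes a threshold, so a lower Ct means more template. An assay counted as detected when its Ct was at most 28, and 40 stands for no Ct. The labels name no animal, so each sorted group is 1 sample and differences between groups carry no p-value. Intervals of shares are exact (Clopper-Pearson) 95% intervals, those of differences follow Newcombe, and all of them cover counting error between cells only. For a count of 0, the share it allows is given as 3 divided by the number of cells. This lies below the upper limit of the exact interval. Every plate held single cells of 1 group, and 5 groups were spread over 2 plates each, while FrA Gfra2+ Bst1+ lay on 1 plate. Plate and group therefore cannot be told apart, and the plates within a group show how far a share moved from plate to plate.

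The sort labels were read against transcripts first. Gfra2 was detected in 90.5% to 93.9% of cells of the 3 Gfra2+ groups and in 2.30% to 13.3% of cells of the 3 Gfra2- groups. Bst1 was detected in 88.1% of FrA Gfra2+ Bst1+ cells and in 34.9% of FrA Gfra2+ Bst1- cells. Il7r, the IL-7 receptor chain of lymphoid progenitors, was detected in 97.6% to 100% of cells of every group. Gene assays detected per cell, a number that includes Gfra2 and Bst1, averaged 21.8 to 27.7 by group and were highest in the 3 Gfra2+ groups. Mean Ct of 3 reference assays, among them Atp5a1 and Hprt, ran from 11.22 to 12.62 cycles over groups. The spike-in RNA ran from 6.63 to 10.08 cycles over plates, and both extremes were plates of CLP Ly6d+Gfra2+.

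Nfil3 was the most widely detected of the NK genes, found in 251 of 463 cells (54.2%, 49.6 to 58.8). Klrb1c was found in 86 cells (18.6%, 15.1 to 22.4) and Il2rb in 44 cells (9.50%, 6.99 to 12.5). By share of cells they ranked 24, 34 and 38 of the 47 gene assays. No group lacked any of the 3 transcripts.

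Nfil3 was detected in 62.1% of CLP Ly6d-Gfra2- (51 to 72.3), with 64.3% on plate 5 and 60.0% on plate 9. In CLP Ly6d+Gfra2- it was detected in 39.5% (29.2 to 50.7), with 40.5% and 38.6% on plates 6 and 7. CLP Ly6d+Gfra2+ had 62.2% (50.8 to 72.7), with 70% on plate 1 and 54.8% on plate 10. The CLP group with Ly6d alone was thus low on both of its plates, and no plate of either neighbouring group overlapped it. FrA Gfra2- Bst1- had 47% (35.9 to 58.3), and its plates differed, with 36.6% on plate 2 and 57.1% on plate 8. FrA Gfra2+ Bst1- had 61.4% (50.1 to 71.9), with 57.1% and 65.9% on plates 3 and 4, and FrA Gfra2+ Bst1+ had 52.4% (36.4 to 68). Ordered by share, no group was separated from the next below it, since all 5 intervals of these differences included 0.

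Il2rb was scarce, and most frequent in FrA Gfra2- Bst1- and CLP Ly6d+Gfra2-. FrA Gfra2- Bst1- held 17 of the 44 Il2rb cells, a share of 20.5% (12.4 to 30.8). These cells lay unevenly on its plates, with 31.7% on plate 2 and 9.52% on plate 8. CLP Ly6d+Gfra2- had 14.0% (7.42 to 23.1), with 14.3% and 13.6% on its plates. CLP Ly6d+Gfra2+ had 8.54% (3.5 to 16.8), and CLP Ly6d-Gfra2- had 6.90% (2.57 to 14.4). In the FrA cells with Gfra2, Il2rb was found in 1 of 83 Bst1- cells (1.20%, 0.0305 to 6.53) and in 1 of 42 Bst1+ cells (2.38%, 0.0603 to 12.6). Plate 4 had it in 0 of 41, which allows up to 7.32%. No group in the order of Il2rb shares was separated from the next.

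Klrb1c was most frequent in the 3 Gfra2+ groups. FrA Gfra2+ Bst1+ had 35.7% (21.6 to 52). CLP Ly6d+Gfra2+ had 26.8% (17.6 to 37.8), with 35.0% on plate 1 and 19.0% on plate 10, and FrA Gfra2+ Bst1- had 26.5% (17.4 to 37.3), with 26.2% and 26.8% on its plates. CLP Ly6d-Gfra2- had 12.6% (6.48 to 21.5), CLP Ly6d+Gfra2- had 11.6% (5.72 to 20.3), and FrA Gfra2- Bst1- had 7.23% (2.70 to 15.1). The plates of these Gfra2- groups lay between 7.14% and 13.3%, below every Gfra2+ plate. In the order of shares, the step from FrA Gfra2+ Bst1- to CLP Ly6d-Gfra2- was the one whose interval left out 0, at 13.9 points (1.91 to 25.6).

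**Figure D1:**
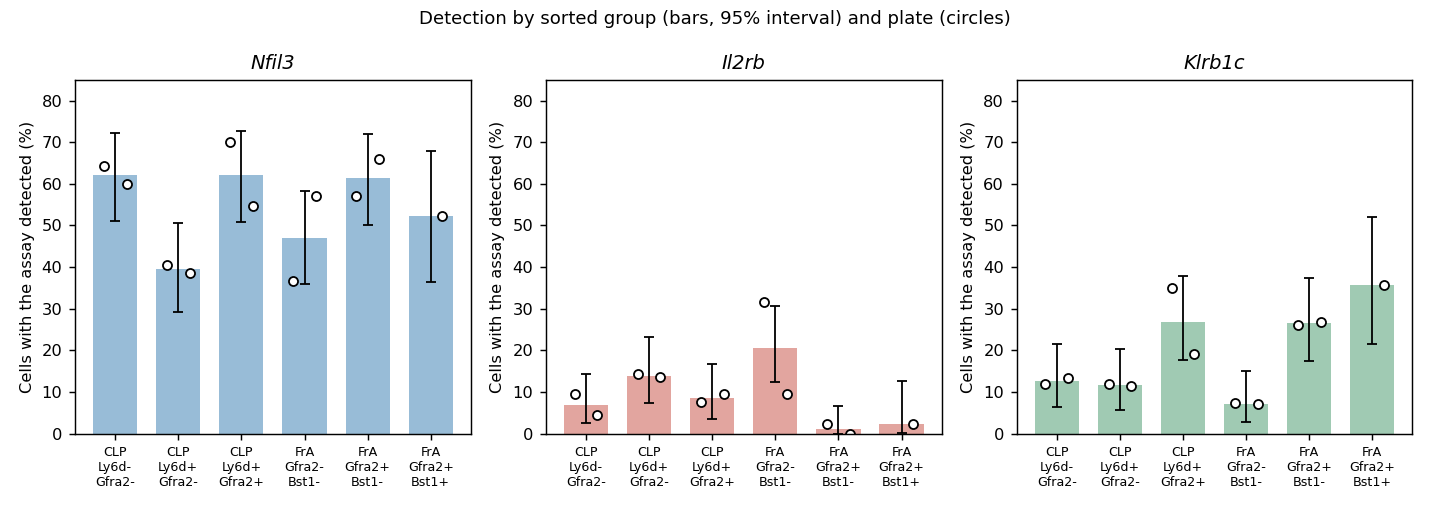
Share of single cells with Nfil3, Il2rb or Klrb1c detected (vertical axis, percent) in the 6 sorted groups (horizontal axis). Bars are the share over all cells of the group with its exact 95% interval, and circles are single plates. Klrb1c is highest in the 3 groups sorted as Gfra2+, from 26.5% to 35.7%, while Il2rb is at 1.20% and 2.38% in the Gfra2+ FrA groups.

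Differences between neighbouring groups were then read with a rule of size, since no test was possible. The rule asked for a gap of 20 percentage points or more, with the plates of the 2 groups not overlapping. A fall of 20 points was out of reach for Il2rb from any group but FrA Gfra2- Bst1-, since its share elsewhere was 14.0% or less. Among Gfra2- CLP, cells with Ly6d held Nfil3 less often, a difference of -22.5 points (Ly6d+ minus Ly6d-, -36.1 to -7.64), which met the rule. Of 45 assays not used for sorting, 8.89% met it in that comparison. The 45 include the reference assays and some found in nearly every cell of every group, such as Il7r, where a gap of 20 points was not possible. For Il2rb the difference was 7.06 points (-2.29 to 16.7), and for Klrb1c it was -1.02 points (-11.1 to 9.05). In the median over all assays the size of the difference was 2.34 points. Mean reference Ct was 12.24 cycles in the Ly6d+ and 11.22 cycles in the Ly6d- cells. The group with fewer Nfil3 cells thus also gave later reference Ct. In cells from the middle 50% of reference Ct the Nfil3 difference was -30.8 points. With a detection limit set relative to the reference assays it was -21.4 points, and both values met the rule. The part of reference Ct in the difference was not tested.

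Gain of Gfra2 within Ly6d+ CLP went with more Nfil3 and more Klrb1c cells. For Nfil3 the difference was 22.7 points (7.54 to 36.4) and met the rule, as 15.6% of the assays did. It fell short of the rule without plate 1, at 15.2 points, with a detection limit of Ct 18, at 14.5 points, and with a limit set relative to the reference assays, at 18.9 points. For Klrb1c the difference was 15.2 points (3.28 to 26.9), with the plates apart but short of 20 points. It met the rule without plate 10, at 23.4 points, and was 7.42 points without plate 1. Il2rb differed by -5.42 points (-15.3 to 4.50), in the other direction.

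Within Bst1- FrA, where 24.4% of assays met the rule, Gfra2 divided Klrb1c and Il2rb in opposite directions. Klrb1c was 19.3 points more frequent with Gfra2 (7.98 to 30.4), and Il2rb differed by -19.3 points (Gfra2+ minus Gfra2-, -29.2 to -10.3). The plates of both genes were fully apart, and both differences lay just below 20 points. The size for Il2rb depended on the plate: it was -8.32 points without plate 2, while it met the rule at -30.5 points without plate 8 and at -20.5 points without plate 3. Nfil3 differed by 14.5 points (-0.665 to 28.7) with overlapping plates, by 24.9 points without plate 8, where the rule was met, and by 4.30 points without plate 2. The number of gene assays detected per cell moved along with Klrb1c, at 26.1 with and 22.4 without Gfra2 in Ly6d+ CLP and at 26.5 and 21.8 in Bst1- FrA. This number includes Klrb1c, the sort gene Gfra2 and B-lineage assays such as Pax5 that differ between these groups. It is therefore not a separate measure of detection depth. In cells from the middle 50% of reference Ct, the Klrb1c differences were 20.8 points in CLP and 27.2 points in FrA, and both met the rule. In the same cells the Il2rb difference in FrA was -12.2 points. This choice of cells limits reference Ct and not the number of assays detected, whose part was not tested.

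The other comparisons gave smaller values. Gain of Bst1 in Gfra2+ FrA went with differences of -9.06 points for Nfil3 (-26.7 to 8.80), 1.18 for Il2rb (-4.48 to 11.2) and 9.21 for Klrb1c (-7.21 to 26.5). None met the rule, which 6.67% of assays did. In cells from the middle 50% of reference Ct the Klrb1c difference for Bst1 gain was 1.42 points. Between compartments, FrA Gfra2+ Bst1- and CLP Ly6d+Gfra2+ differed by -0.749 points for Nfil3 and -0.323 points for Klrb1c, with intervals of -15.3 to 13.8 and -13.7 to 13.0. The sign of these turned with the plate left out: without plate 1 they were 6.68 and 7.46 points, and without plate 10 they were -8.55 and -8.49 points. Il2rb differed there by -7.33 points (FrA minus CLP, -15.4 to -0.475), against 6.67% of assays that met the rule. Between the Gfra2- groups, FrA minus CLP Ly6d+, the differences were 7.45 points for Nfil3 (-7.35 to 21.8), 6.53 for Il2rb (-4.95 to 18.0) and -4.40 for Klrb1c (-13.7 to 4.85), and 11.1% of assays met the rule. The first 2 of these did not keep their sign over plates. Nfil3 was 17.6 points without plate 2 and -2.95 points without plate 8, and Il2rb was -4.43 points without plate 2 and 17.8 points without plate 8.

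**Figure D2:**
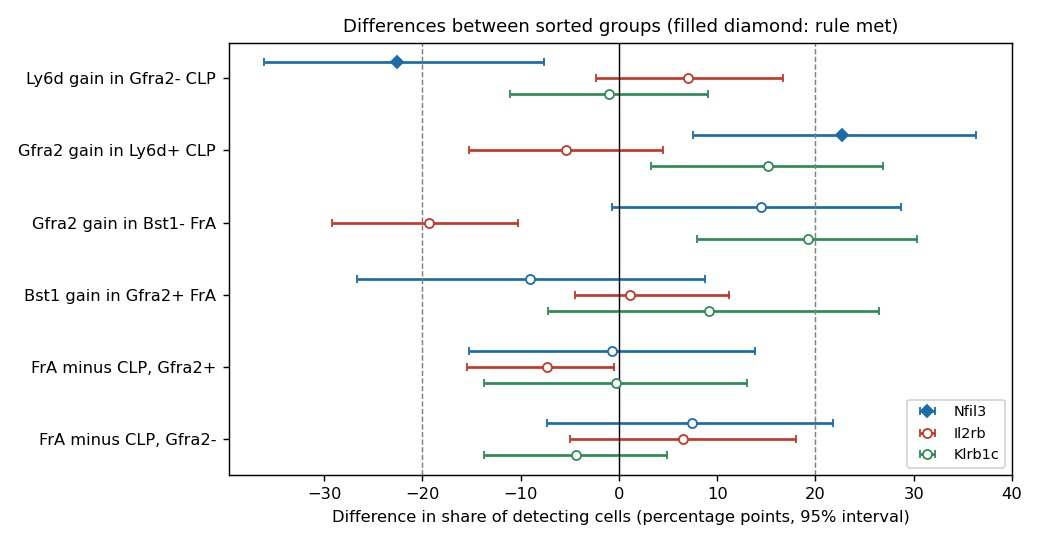
Difference in the share of detecting cells for each comparison (horizontal axis, percentage points, first group minus second, with 95% interval), one row per comparison and one colour per gene. Dashed lines mark 20 points, and filled diamonds met the rule: Nfil3 at -22.5 points for Ly6d gain and at 22.7 points for Gfra2 gain in CLP.

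A pooled reading over plates was added after these values had been seen. Among Ly6d+ CLP and FrA, the share of Klrb1c cells lay between 19.0% and 35.7% on the 5 Gfra2+ plates and between 7.14% and 11.9% on the 4 Gfra2- plates. Of the 45 assays, 24.4% had all Gfra2+ plates above all Gfra2- plates, among them the B-cell markers Ebf1, Pax5, Igll1 and Pou2af1. Nfil3 plates overlapped, at 52.4% to 70% against 36.6% to 57.1%, and Il2rb plates met at 9.52%, with 0 to 9.52% against 9.52% to 31.7%.

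Among cells that detected it, Nfil3 varied more in level than any other assay ranked. Its Ct had an SD of 3.15 cycles over 251 cells, the largest of 40 assays detected in at least 20 cells, and ran from 10.01 to 26.46. The median SD of these assays was 1.46 cycles. Il2rb had an SD of 1.49 cycles (rank 18) and Klrb1c one of 0.99 cycles (rank 38). Ct above 18 was recorded in 34.3% of Nfil3-detecting cells, in 1 of 44 Il2rb cells and in 1 of 86 Klrb1c cells. A detected Klrb1c signal stood near one level, with a median Ct of 14.94 and a 5th to 95th percentile of 13.12 to 15.80. For Nfil3 the median was 16.15 and the same range 11.69 to 22.57.

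Cells with late Nfil3 signals lay between the other cells in reference Ct. Mean reference Ct was 12.01 ± 1.03 cycles (SD) in the 86 cells with Nfil3 Ct above 18, 11.71 ± 1.02 cycles in the 165 cells at or below 18 and 12.09 ± 0.99 cycles in the 212 cells with none. The number of assays detected other than the 3 genes was 23.1, 23.6 and 23.0 in these cells. Every group held both kinds of cell. Late signals made up 25.9% of Nfil3-detecting cells in CLP Ly6d-Gfra2-, the lowest share, and 41.2% in CLP Ly6d+Gfra2-, the highest.

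Mean Nfil3 Ct was 16.00 ± 3.32 cycles (SD, 54 cells) in CLP Ly6d-Gfra2-, 17.69 ± 3.26 cycles (34 cells) in CLP Ly6d+Gfra2- and 17.27 ± 3.03 cycles (51 cells) in CLP Ly6d+Gfra2+. In FrA it was 16.53 ± 3.24 cycles (39 cells) in Gfra2- Bst1-, 16.88 ± 2.67 cycles (51 cells) in Gfra2+ Bst1- and 17.54 ± 3.39 cycles (22 cells) in Gfra2+ Bst1+. A rule of at least 1 cycle, with separate plates and at least 10 detecting cells in both groups, was met by Nfil3 in Ly6d gain, with a level difference of -1.69 cycles (mean Ct of Ly6d- minus that of Ly6d+, -3.10 to -0.284). In that comparison 14.8% of 27 assays met it. Relative to the reference assays the difference was -0.63 cycles, short of the rule, and medians did not separate the plates. Nfil3 also met it between the Gfra2- groups, at 1.17 cycles (mean Ct of CLP Ly6d+Gfra2- minus that of FrA, -0.329 to 2.66), where 17.9% of assays did. That call was lost without plate 8, at 0.87 cycles, and with medians, whose plates overlapped.

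Elsewhere the Nfil3 level differences ran from -0.66 to 0.43 cycles and did not meet the rule. In 3 of these comparisons they met it when a plate was left out: 1.12 cycles for Gfra2 gain in CLP without plate 10, -1.04 cycles for Bst1 gain without plate 3, and 1.23 cycles between the Gfra2+ compartments without plate 1. In the fourth, Gfra2 gain in FrA, the value relative to the reference assays was -1.39 cycles and met it. Over all assays, the rule was met by 14.3% of assays for Gfra2 gain in CLP, 34.5% for Gfra2 gain in FrA, 15.2% for Bst1 gain and 9.68% between the Gfra2+ compartments. Klrb1c had enough detecting cells in 4 comparisons, and its largest level difference was 0.55 cycles, for Bst1 gain (-0.0283 to 1.13). Relative to the reference assays the Klrb1c level difference for Ly6d gain was 1.06 cycles and met the rule, against 0.05 cycles in Ct alone. Its mean Ct was 14.25 ± 1.05 cycles (SD, 15 cells) in FrA Gfra2+ Bst1+ and between 14.80 and 14.99 cycles in the other groups. Il2rb could be compared between the Gfra2- groups, at 14.62 ± 1.12 cycles (17 cells) in FrA and 15.04 ± 1.12 cycles (12 cells) in CLP Ly6d+Gfra2-. That difference of 0.42 cycles had an interval of -0.411 to 1.25.

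**Figure D3:**
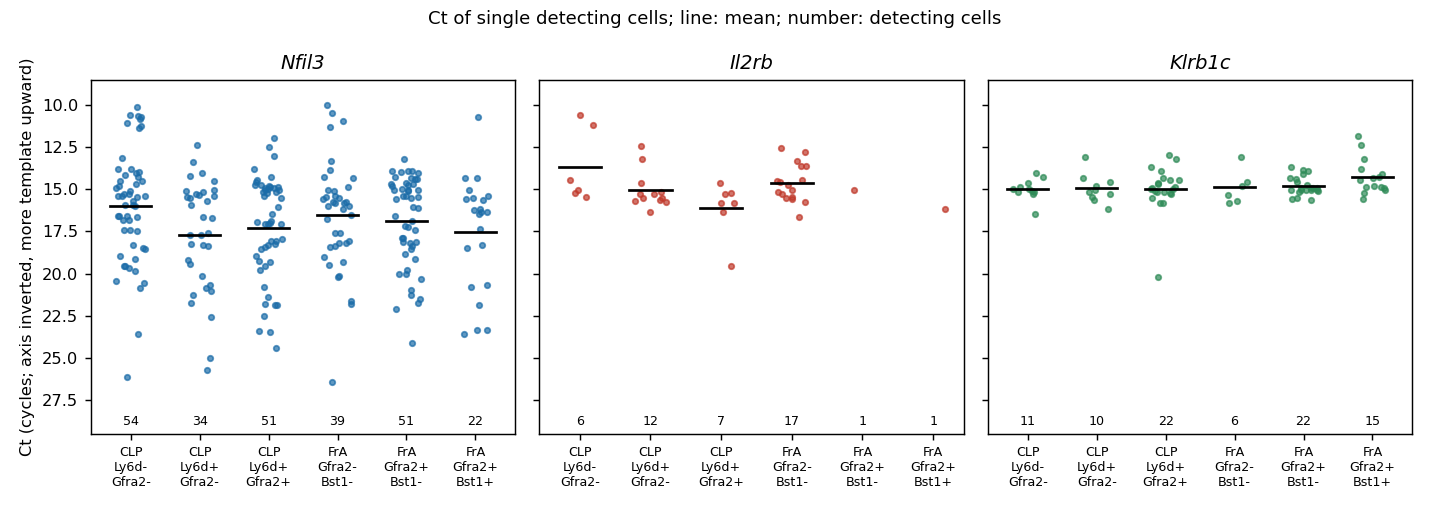
Ct of each detecting single cell (vertical axis, cycles, inverted so that more template is upward) by sorted group, with the mean as a line and the number of detecting cells below. Nfil3 spreads from 10.01 to 26.46 cycles, while the Klrb1c cells gather near their median of 14.94.

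All 3 NK genes were detected together in few cells. Of 463 cells, 161 detected none of them, 227 detected 1, 71 detected 2 and 4 detected all 3. Il2rb and Klrb1c were detected together in 5 cells, where 5.88 would be found if they were independent within each group. Of these cells, 3 were CLP Ly6d+Gfra2+, 1 was CLP Ly6d+Gfra2- and 1 was FrA Gfra2- Bst1-. Nfil3 and Klrb1c shared 48 cells, against 48.7 for independence within groups. Single groups lay on both sides, with 16 cells against 13.5 in FrA Gfra2+ Bst1- and 5 against 7.86 in FrA Gfra2+ Bst1+. The share of Nfil3 with minus without Klrb1c was 15.4 points (-8.54 to 34.2) and -29.6 points (-53.5 to 1.57) there. Nfil3 and Il2rb shared 30 cells, against 21.9.

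Il2rb cells thus carried Nfil3 more often than not, and this was seen group by group. In CLP Ly6d-Gfra2- all 6 Il2rb cells detected Nfil3, which left Il2rb in 11.1% of 54 Nfil3-detecting cells and in 0 of 33 others, which allows up to 9.09%. With and without Nfil3, Il2rb was found in 20.6% and 9.62% of CLP Ly6d+Gfra2- cells, 11.8% and 3.23% of CLP Ly6d+Gfra2+ cells, and 25.6% and 15.9% of FrA Gfra2- Bst1- cells. The direction was the same in these 4 groups, with differences of 8.54 to 11.1 points, but the interval of each included 0. The Gfra2+ FrA groups held 1 Il2rb cell each, with Nfil3 in that of Bst1- and without it in that of Bst1+.

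The panel held 2 further genes of the NK and innate lymphoid list, Id2 and Gata3. Id2, an inhibitor of E proteins that innate lymphoid cells need, was detected in 28.9% to 58.1% of cells by group. Gata3, a transcription factor of T cells and innate lymphoid cells, was detected in 17.2% of CLP Ly6d-Gfra2-, in 6.02% to 7.32% of the next 4 groups, and in 0 of 42 FrA Gfra2+ Bst1+ cells, which allows up to 7.14%. In FrA Gfra2- Bst1-, Il2rb was found in 11 of 30 Id2-detecting cells (36.7%) and in 6 of 53 cells without Id2 (11.3%). The difference was 25.3 points (6.76 to 44.2), and it was 22.7 points on plate 2 and 21.7 points on plate 8. In the other groups the same difference lay between -3.82 and 7.69 points, with intervals that included 0. Klrb1c was found in 38.5% of Id2-detecting and 16.3% of other CLP Ly6d+Gfra2+ cells, a difference of 22.2 points (2.90 to 39.8) that was 37.5 points on plate 1 and 1.48 points on plate 10. In the other groups the interval included 0, and the Klrb1c difference was -5.46 points in CLP Ly6d-Gfra2-, -8.67 in CLP Ly6d+Gfra2-, -6.10 in FrA Gfra2- Bst1-, 3.74 in FrA Gfra2+ Bst1- and 15.1 in FrA Gfra2+ Bst1+. With Id2 the Nfil3 difference ran from -31.3 points in FrA Gfra2+ Bst1+ to 4.72 points in FrA Gfra2- Bst1-. This list, with the 3 genes among it, gave 14 pairs of assay and group for Nfil3, 18 for Il2rb and 15 for Klrb1c. The unadjusted interval lay above 0 in the Il2rb and Klrb1c pairs named here and included 0 in all others. Some such intervals leave out 0 where there is no relation.

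Joint detection with B-lineage genes was then read within each group, so that the group's own makeup was held fixed. For each gene 33 pairs of a B-lineage assay and a group had at least 10 cells with and 10 without the assay. The unadjusted interval of the difference lay above 0 in 1 pair and below it in 1 for Nfil3, in 2 and 2 for Il2rb, and in 3 and 1 for Klrb1c. Some unadjusted intervals leave out 0 where there is no relation, and no share over the panel's other assays is given beside these counts. The pairs named below include the most extreme of the 33. The median difference over pairs was -0.458 points for Nfil3, -1.77 for Il2rb and 4.00 for Klrb1c.

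Klrb1c was found more often beside Pou2af1 in CLP Ly6d+Gfra2+, and beside Ebf1 and Pax5 in FrA Gfra2- Bst1-. In CLP Ly6d+Gfra2+, Klrb1c was found in 15 of 35 Pou2af1-detecting cells (42.9%) and in 7 of 47 others (14.9%). The difference of 28.0 points (8.35 to 45.9) was 16.5 points on plate 1 and 35.7 points on plate 10. The intervals of the other B-lineage assays of that group included 0, with differences of 8.20 points for Pax5, 2.10 for Igll1 and 14.4 each for Rag1 and Bach2. In FrA Gfra2- Bst1-, all 6 Klrb1c cells detected Ebf1, so that Klrb1c was found in 13.3% of 45 Ebf1-detecting cells and in 0 of 38 others, which allows up to 7.89%. In the same cells Klrb1c was found in 23.5% of 17 Pax5-detecting cells and in 3.03% of 66 others, a difference of 20.5 points (4.70 to 44.3) that was 25.6 and 16.9 points on its plates. In FrA Gfra2+ Bst1- the corresponding Pou2af1 difference was 5.21 points (-13.9 to 23.2), and in FrA Gfra2+ Bst1+ it was -8.33 points (-38.2 to 20.3).

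Of the B-lineage assays, the one with the largest Il2rb difference within FrA Gfra2- Bst1- and within CLP Ly6d+Gfra2- was Spib, an Ets-family transcription factor of B cells and plasmacytoid dendritic cells. In FrA Gfra2- Bst1-, Il2rb was found in 4 of 52 Spib-detecting cells (7.69%) and in 13 of 31 cells without Spib (41.9%), a difference of -34.2 points (-52.2 to -15.5). It was -55.1 points on plate 2 and -14.9 points on plate 8, the plate with fewer Il2rb cells. In CLP Ly6d+Gfra2- the sign was turned, with Il2rb in 5 of 17 Spib-detecting cells (29.4%) and 7 of 69 others (10.1%), a difference of 19.3 points (0.623 to 43.5). Klrb1c, too, was found less often with Spib in FrA Gfra2- Bst1-, in 1 of 52 cells against 5 of 31, a difference of -14.2 points (-30.8 to -2.01). In FrA Gfra2+ Bst1- the interval of Il2rb with Pax5 also lay below 0, at -10 points (-40.4 to -0.386), but this rests on 1 Il2rb cell. All 17 Il2rb cells of FrA Gfra2- Bst1- detected Dntt, the terminal transferase of early lymphocytes, while 0 of 14 cells without Dntt detected Il2rb, which allows up to 21.4%. That difference was 24.6 points (1.43 to 36.0).

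The Il2rb cells of FrA Gfra2- Bst1- were mixed in B-lineage markers. Of the 17 cells, 12 detected Ebf1, 2 detected Pax5 and 0 detected Igll1 or Pou2af1, while 11 detected Id2, 10 detected Nfil3 and 1 detected Klrb1c. Ebf1 was detected in 54.2%, Pax5 in 20.5%, Igll1 in 2.41% and Pou2af1 in 3.61% of all cells of that group. Id2 was detected in 36.1%, Nfil3 in 47% and Klrb1c in 7.23% of them. Igll1 and Pou2af1 were thus rare in the whole group, and 0 of 17 does not set the Il2rb cells apart. Of the 12 Il2rb cells of CLP Ly6d+Gfra2-, 8 detected Ebf1, 1 detected Pax5 and 8 detected Id2. In all cells of that group these were detected in 73.3%, 9.30% and 58.1%. All 7 Il2rb cells of CLP Ly6d+Gfra2+ detected Ebf1, as did every cell of that group, and 3 of them detected Pax5 and 3 Pou2af1. Pax5 and Pou2af1 were detected in 65.9% and 42.7% of all cells of that group.

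Nfil3 had no steady relation to B-lineage genes. In CLP Ly6d+Gfra2+ it was found in 68.3% of 63 cells with Bach2, a transcriptional repressor of the B lineage, and in 42.1% of 19 cells without it, a difference of 26.1 points (1.30 to 47.7). In FrA Gfra2+ Bst1- it was found in 57.5% of 73 Pax5-detecting cells and in 9 of 10 cells without Pax5, a difference of -32.5 points (-46.5 to -0.230). With Ebf1 the Nfil3 difference was -20.7 points in CLP Ly6d-Gfra2- (-40.5 to 0.807) and -23.2 points in CLP Ly6d+Gfra2- (-43.8 to 0.0446). In FrA Gfra2- Bst1- it was 4.15 points (-16.7 to 24.5).

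Counting the 4 B-cell progenitor markers Ebf1, Pax5, Igll1 and Pou2af1 in each cell extended this to whole compartments. Klrb1c was found in 9.88% of 81 CLP cells with 0 markers, 13.3% of 105 with 1, 24.2% of 33 with 2, 38.5% of 26 with 3 and 30.0% of 10 with 4. Among FrA cells it was found in 0 of 39 with 0 markers, which allows up to 7.69%, then in 11.4%, 22.5%, 28.6% and 33.9% of cells with 1, 2, 3 and 4. Il2rb in CLP was found in 11.1%, 9.52%, 12.1% and 7.69% of cells with 0, 1, 2 and 3 markers and in 0 of 10 with 4, which allows up to 30%. Il2rb in FrA was found in 15.4% of cells with 0 markers, 28.6% with 1, 5.00% with 2, 2.86% with 3 and 0 of 59 with 4, which allows up to 5.08%. Nfil3 stood between 41.9% and 80% in CLP and between 43.6% and 62.7% in FrA, without an order. Cells with many markers came mostly from Gfra2+ groups, so these shares repeat the difference between groups in part. Of the 59 FrA cells with 4 markers, 1 was Gfra2-. Among Gfra2+ FrA, Il2rb was in 1 of 83 Bst1- and 1 of 42 Bst1+ cells. Within FrA Gfra2+ Bst1-, Klrb1c had no order, at 33.3%, 17.4%, 25.0% and 33.3% with 1, 2, 3 and 4 markers. Within FrA Gfra2- Bst1- it was found in 0 of 37 cells with 0 markers (up to 8.11%), 6.90% with 1 and 21.4% with 2.

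The same count was then read within groups. In CLP Ly6d+Gfra2+, 3 or 4 markers were present in 13 of 22 Klrb1c cells (59.1%) and in 36.7% of 60 others, a difference of 22.4 points (-1.54 to 43.2). In FrA Gfra2+ Bst1- the shares were 72.7% and 60.7%, a difference of 12.1 points (-11.7 to 31.0), and in FrA Gfra2+ Bst1+ they were 86.7% and 92.6%. The 6 Klrb1c cells of FrA Gfra2- Bst1- held 1.83 ± 0.75 markers (SD) and its 77 other cells 0.73 ± 0.85, and 3 or 4 markers were present in 16.7% and 2.60%, a difference of 14.1 points (-1.01 to 53.8). Klrb1c cells of CLP Ly6d+Gfra2+ detected 25.9 ± 2.60 assays (SD) besides the 3 genes, and the other cells 24.8 ± 2.75. In FrA Gfra2- Bst1- the numbers were 22.8 ± 1.72 in Klrb1c cells and 20.9 ± 2.91 in cells without it. For Il2rb in that group they were 22.2 ± 2.59 and 20.7 ± 2.89. The part of the number of assays in the joint detection was not tested. For Nfil3 in FrA Gfra2+ Bst1+, 3 or 4 markers were present in all 22 Nfil3 cells and in 16 of 20 others, a difference of 20 points (0.937 to 41.6). The Nfil3 difference was -9.17 points (-29.9 to 12.2) in CLP Ly6d+Gfra2+ and -13.1 points (-31.6 to 8.21) in FrA Gfra2+ Bst1-. In FrA Gfra2+ Bst1+ the Nfil3 cells also had a lower mean reference Ct, 11.44 ± 1.30 cycles (SD) against 12.34 ± 0.86 cycles, whose part was not tested.

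**Figure D4:**
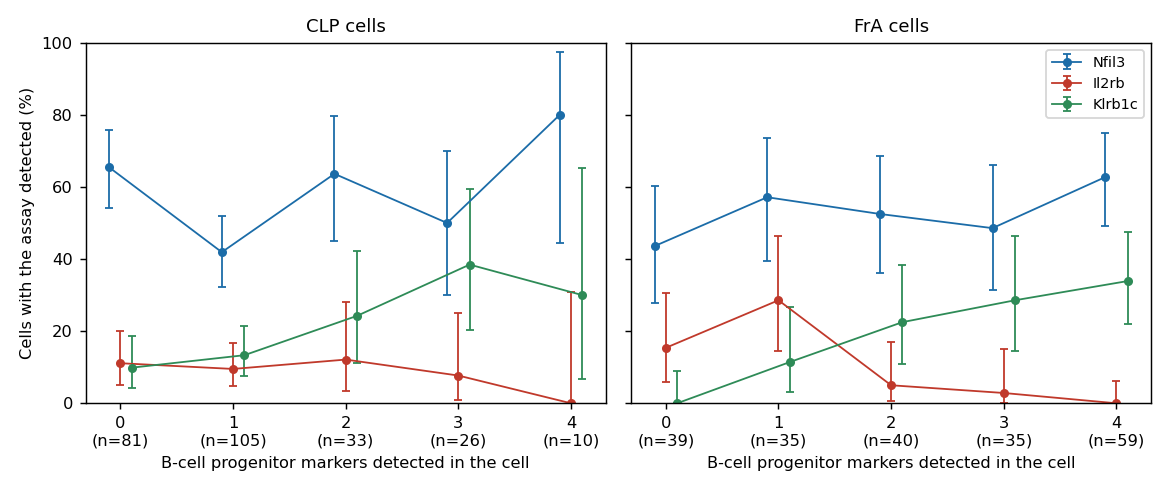
Share of cells with Nfil3, Il2rb or Klrb1c detected (vertical axis, percent, with exact 95% interval) by the number of B-cell progenitor markers detected in the same cell, for all CLP and all FrA cells. In FrA, Klrb1c runs from 0 of 39 cells without a marker to 33.9% with 4, and Il2rb is absent from the 59 cells with 4 markers. Of those 59 cells 1 was sorted as Gfra2-, so marker count and group go together there.

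The genes whose detection was most like that of each NK gene were taken over the 11 plates, among 25 assays whose share spanned at least 10 points. These correlations are descriptions: plates of a group share their sort, and the depth of detection differs between plates. Klrb1c was most like Pou2af1 (Pearson r = 0.95), Pax5 (r = 0.87) and Rag1, a recombinase chain that cuts antigen receptor genes (r = 0.82). It was least like the survival gene Bcl2 (r = -0.88). The likeness was not complete, since Pou2af1 was detected in 0 of 87 CLP Ly6d-Gfra2- cells, which allows up to 3.45%, where Klrb1c was detected in 12.6%. Il2rb was most like Lck, a kinase of T and NK cells (r = 0.55), Bcl2 (r = 0.51) and Spib (r = 0.49), and least like Kit (r = -0.64). Nfil3 was most like Kit, the stem cell factor receptor (r = 0.57), Bach1 (r = 0.56) and Gata3 (r = 0.51). Among themselves, Nfil3 and Il2rb ran opposite to each other (r = -0.71), as did Il2rb and Klrb1c (r = -0.62), while Nfil3 and Klrb1c ran together (r = 0.52). Plate 2 had both the highest Il2rb share (31.7%) and the lowest Nfil3 share (36.6%). Within cells the direction was the other one, with Nfil3 and Il2rb together in 30 cells, against 21.9 for independence within groups.

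The promoters of Klrb1c and of Pou2af1, the gene most like it over plates, are shown because their detection moved together. Each window runs from 250 bases before to 50 bases after the RefSeq start on GRCm38.p6, at chr6:128788592-128788891 on the minus strand for Klrb1c and at chr9:51213440-51213739 on the plus strand for Pou2af1. Capitals mark the Ets core GGAA on either strand, which reads TTCC where it lies on the other strand.
Klrb1c: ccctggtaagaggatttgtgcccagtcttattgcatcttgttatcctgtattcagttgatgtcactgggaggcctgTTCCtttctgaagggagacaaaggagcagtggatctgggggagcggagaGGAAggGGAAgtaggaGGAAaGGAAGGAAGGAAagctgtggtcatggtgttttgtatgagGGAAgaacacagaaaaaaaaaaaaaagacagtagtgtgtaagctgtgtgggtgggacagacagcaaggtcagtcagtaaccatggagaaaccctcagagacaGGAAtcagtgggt
Pou2af1: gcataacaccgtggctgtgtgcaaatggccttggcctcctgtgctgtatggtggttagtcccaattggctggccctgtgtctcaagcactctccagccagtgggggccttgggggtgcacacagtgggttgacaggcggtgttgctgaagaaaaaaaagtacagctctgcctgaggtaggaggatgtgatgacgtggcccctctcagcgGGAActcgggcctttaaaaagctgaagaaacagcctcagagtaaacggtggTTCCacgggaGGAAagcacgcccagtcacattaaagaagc
The Klrb1c window held 9 Ets cores, more than the windows of 98.4% of 32851 promoters, whose median is 3, and the Pou2af1 window held 3. At least 1 Ets core lay in 96.0% of promoters. The Ebf1 palindrome (TCCC, any 2 bases, GGGA), found in 0.904% of promoters, the Nfil3 site TTANNTAA, in 6.00%, and the octamer ATGCAAAT, in 1.74%, had no match on either strand of these windows. Nor had they one in the window of Nfil3, at chr13:52980990-52981289 on the minus strand, which held 1 Ets core and 54 CpG dinucleotides against 1 CpG in that of Klrb1c. A match is a description of letters, and nothing about binding follows from it.

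Wells of 10 and of 20 cells, 1 of each on 10 plates, showed how the signals add up. In such wells, fewer cells with a transcript and less of it per cell cannot be told apart. Nfil3 was detected in all 10 wells of each size, where 9.98 and 10.0 would be found from the single-cell share of each plate. Il2rb was detected in 7 wells of 10 cells and 8 of 20 cells, where 5.55 and 7.26 would be found. Klrb1c was detected in 7 and 9, where 7.73 and 9.23 would be found. The 10-cell well of plate 4 gave Il2rb at Ct 13.86, while 0 of the 41 single cells on that plate did, and its 20-cell well gave none.

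Mean Nfil3 Ct was 12.75 ± 1.60 cycles (SD, n = 10) in wells of 10 cells, with values of 9.94 to 14.75 and a median of 12.58. In wells of 20 cells it was 11.33 ± 1.01 cycles (n = 10), with values of 9.11 to 13.08 and a median of 11.31, so the ranges overlapped. The difference of -1.42 cycles (20-cell minus 10-cell) gave p = 0.0317 in a two-sided permutation test and 0.0804 after Benjamini-Hochberg adjustment over 33 assays. Paired by plate, the wells of 20 cells were lower on 8 of 10 plates, with p = 0.0332 in an exact sign-flip test and 0.0438 after adjustment. Il2rb differed by -0.29 cycles (adjusted p = 0.805, exact permutation test, 8 against 7 wells) and Klrb1c by -0.51 cycles (adjusted p = 0.682, exact permutation test, 9 against 7 wells). These means are over unequal sets of plates. On the 6 plates where both wells detected Il2rb, the paired difference was -0.87 cycles (adjusted p = 0.375, exact sign-flip test). For Klrb1c it was -0.96 cycles on 7 plates (adjusted p = 0.231, exact sign-flip test). Without pairing 6.06% of the 33 assays passed and 15 had an unadjusted p below 0.05, while 25 passed with the pairing. Of the 33 assays, 32 had a lower mean Ct in the larger wells.

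**Figure D5:**
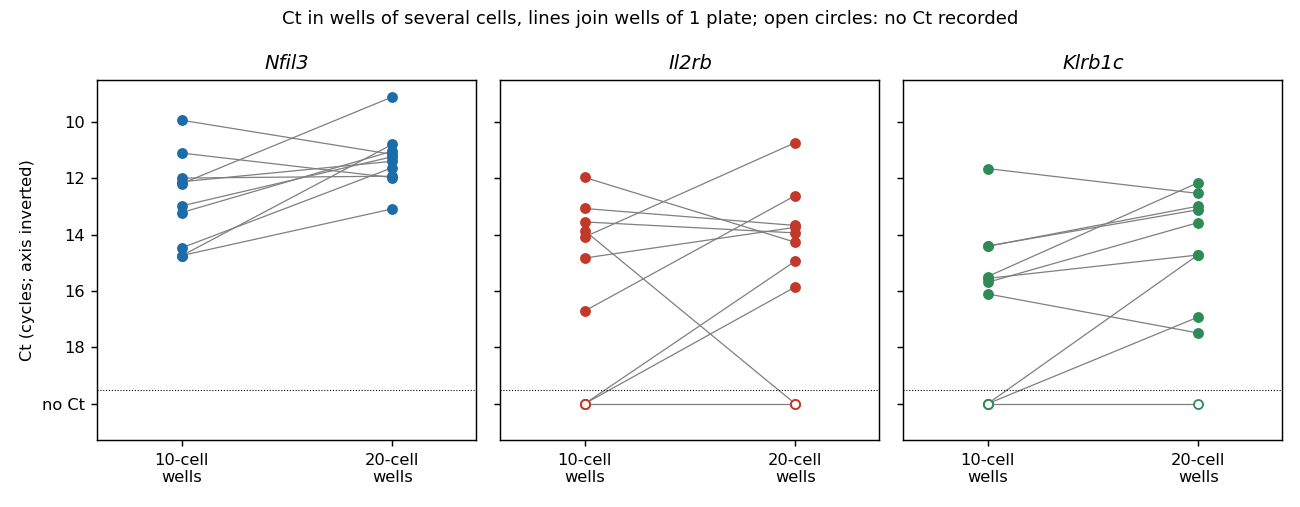
Ct of Nfil3, Il2rb and Klrb1c (vertical axis, cycles, inverted) in wells of 10 and 20 cells, with a line joining wells of the same plate and open circles for wells with no Ct. All Nfil3 wells gave a signal, while Il2rb was found in 7 and 8 and Klrb1c in 7 and 9 of 10 wells.

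The sources used here give no assay sequences. The mouse genome holds near relatives of Klrb1c, such as Klrb1a and Klrb1b, and whether the NK1.1 assay also reads them was not tested.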

How the data were processed

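Single cells, and wells of 10 or 20 cells, had been sorted into plates, reverse transcribed, pre-amplified with TaqMan assays and read on a BioMark HD, per the labels' protocols. The deposited score was read as Ct, since the protocols name TaqMan assays and the values span 4.69 to 28.1, apart from those at exactly 40. The sources used here give no software, quality threshold or normalisation. The table held 486 wells on 11 plates: 464 single cells, 10 wells of 10 cells, 10 of 20 cells, and 2 wells titled as lacking reverse transcriptase but described as cells, which entered no comparison. Cells with at least 2 of 3 reference assays detected were kept, which left out 1. Symbols follow the assay names, updated where old. Values of some assays are not reported here.

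Shares were compared as reported, with alternatives on the Ct limit, scaling, cell filter, well position and plates. Level comparisons needed 10 detecting cells in both groups. Wells of 10 and 20 cells were compared by a two-sided permutation test (100000 resamples, exact with under 10 values in a group). As an alternative, plates served as a replicate block. The labels place both wells on the same plate, and deviations of the 2 wells correlated at a median r of 0.65 over 24 assays, above 0.1 on 9 of 10 plates. The calling rule and the well test were tested on simulated data. The simulated gaps were larger than those of the NK genes, and the simulated wells had less spread and no missing Ct. The simulation thus does not show how often differences of the sizes reported here would be found. The labels name no separate animals, so p-values measure the spread between wells, which may be technical. Named genes were the NK genes, the 4 B-cell progenitor markers, the other panel members of an NK and innate lymphoid list, the 3 assays most like each NK gene over plates, and the B-lineage assay with the largest joint-detection difference in each group. Other genes named were chosen after their values were seen. The members, lists and rules were chosen with earlier results of these data known. Python 3.11.15, pandas 2.3.3, SciPy 1.17.1 and RefSeq promoters of GRCm38.p6 were used, and 2 of the 3 NK genes matched the promoter table. The Ct files name no build.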

Additional observations from a re-analysis of the deposited data

Results flagged for a closer look

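Klrb1c in the 10-cell well of plate 4 stood apart from the other 6 wells of that size that detected it, with a Ct of 11.65 against 14.40 to 16.10. Its gap was 0.618 of the range, above the critical value of 0.568. Such a gap turns up in about 1 of 20 groups of wells, and 6 groups were examined.

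The 2 wells titled as lacking reverse transcriptase gave Nfil3 at Ct 14.97 and 15.22, and neither gave Il2rb or Klrb1c. These wells detected 25 and 26 gene assays, with mean reference Ct of 12.41 and 11.65, and their descriptions call them cells. Which of their labels holds was not tested.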

How the results depend on the processing

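Of 192 share differences under alternatives, 190 stayed within the interval of their main value. The same held for 50 of 51 level differences and 265 of 273 joint detection differences. Values inside the interval were counted as unchanged even where the sign or the call under the rule turned. The alternatives reuse cells of the main comparison and the intervals are wide, so these counts cannot show that signs or calls were stable. Klrb1c between the Gfra2+ compartments ran from -8.49 to 7.46 points with plates left out, all counted as unchanged. So was Nfil3 for Gfra2 gain in CLP, whose call was lost at 14.5 points with a limit of Ct 18. The Il2rb difference for Gfra2 gain in FrA ran from -30.5 to -8.32 points when plates were left out in turn. The Klrb1c level in Ly6d gain was 1.06 cycles relative to the reference assays, which met the rule for levels, against 0.05 as reported. Between 10-cell and 20-cell wells, Nfil3 passed the threshold with plate as a replicate block, at -1.42 cycles (exact sign-flip test, adjusted p = 0.0438), and its adjusted p over all alternatives ran from 0.0438 to 0.992. Relative to the reference assays the Nfil3 well difference was -0.55 cycles, and the signs of the others turned, to 0.43 cycles for Il2rb and 0.0706 cycles for Klrb1c. Without each plate in turn Il2rb ran from -0.71 to 0.32 cycles, and it turned sign without plate 2 (0.32 cycles) and without plate 7 (0.15 cycles). The cause was not tested. With about 40 cells a plate, shares near those of Il2rb rest on few cells, and plate cannot be told apart from group.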
